A study of Homo sapiens with 4 samples.

Results

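The cytosolic ribosomal protein genes, which encode the proteins of the ribosomes that work in the cytoplasm, were described in MDA-MB-231 cells with and without silencing of PCBP2. Members were taken by name: RPL or RPS followed by a number and, where present, the suffix of a named form, together with RPLP0, RPLP1, RPLP2 and RPSA. This rule gave 82 of the 7698 genes in the table, 50 of the large subunit and 32 of the small subunit. It uses no measured value. MDA-MB-231 is an established human line of triple-negative breast cancer. RNA sequencing libraries were made from 2 samples of untreated cells (untreated 1 and 2) and from 2 samples in which PCBP2 was silenced with a small interfering RNA (siPCBP2 1 and 2). The labels call the control cells untreated and name no control RNA, so in the design as labelled transfection and silencing cannot be told apart. In addition, 1 treatment field of the siPCBP2 samples names transfection with PCBP2 where their titles name the interfering RNA. The titles set the groups. No label says that the 2 samples of a group were grown separately, so every p-value refers to the variation among these libraries, part or all of which may be technical.

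A ribosome is built from a large subunit, which joins amino acids and lets the new protein leave through an exit tunnel, and a small subunit, which holds the mRNA and reads its codons. Most of the proteins are needed in about equal copy number, and surplus unassembled protein is degraded. The mRNAs of these genes belong to the most abundant of a growing cell and begin with a run of pyrimidines led by a C, the 5′ terminal oligopyrimidine (TOP) tract, through which LARP1 and mTOR signalling adjust their translation and stability. PCBP2 is a KH-domain protein that binds C-rich RNA.

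PCBP2 itself, the target of the silencing, measured 101.4 and 92.9 FPKM in the untreated libraries and 16.6 and 16.7 FPKM in the siPCBP2 libraries (log2 fold change -2.47, SE 0.11, limma, adjusted p = 0.0119). All 6 markers taken for this line, among them VIM and CD44, were listed. Of 5 genes taken as low in the line, 5 immune and blood markers and 5 stromal and endothelial markers, only ERBB2 and CD68 were listed, at means of 13.6 and 28.9 FPKM in the untreated group. Values are FPKM, that is, fragments corrected for transcript length and for the number of mapped fragments, so they are relative. No counts were used here and the depth is unknown. Summed FPKM per library ranged from 352964 to 378204, and the mitochondrially encoded mRNAs held 29.7 to 32.3% of it. Across the members siPCBP2 1 stood apart from the other 3 libraries. Some of the values that rest on it, though not all, are given with and without it. In bulk RNA, fewer cells with a transcript and less transcript per cell cannot be told apart.

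The members were abundant in all 4 libraries. Leaving out the 5 paralog forms described below, the 77 core members had a median of 311 FPKM in the untreated group, against 17.0 FPKM for all genes tested. They spanned an 18.7-fold range, from RPS28 at 71.1 FPKM, a protein at the exit side of the mRNA channel, to RPS24 at 1329 FPKM, a small subunit protein mutated in some families with Diamond-Blackfan anaemia. In all, 74 of the 82 members were above 100 FPKM, 14 were above 500 FPKM, and 78 were among the 10% highest genes of the table. The levels of the core members were thus far from equal, although a ribosome holds most of their proteins in equal number.

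In the large subunit, RPL12, a protein at the base of the stalk, led with 1041 and 1043 FPKM in the untreated libraries and 929 and 849 FPKM in the siPCBP2 libraries. RPL35, beside the tunnel exit, followed with 1029, 925, 1074 and 920 FPKM in untreated 1 and 2 and siPCBP2 1 and 2. RPL6 came next with 711, 712, 634 and 701 FPKM. For RPL12 and RPL6 both siPCBP2 values lay under both untreated values, whereas for RPL35 the groups overlapped. The lowest of the large subunit were 3 paralog forms, RPL26L1, RPL22L1 and RPL39L, at means of 31.99, 24.9 and 18.1 FPKM.

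In the small subunit, RPS24 measured 1389 and 1269 FPKM in the untreated libraries and 1031 and 1148 FPKM in the siPCBP2 libraries. RPS18, a protein of the head that contacts the large subunit, measured 919, 911, 867 and 926 FPKM in the same order. RPS2, which lines the mRNA entry channel, measured 1104, 554, 798 and 724 FPKM. The untreated RPS2 values differed 1.99-fold from each other and bracketed both siPCBP2 values. At the low end, RPS28 measured 68.5, 73.7, 83.9 and 64.5 FPKM. RPS20, a head protein, measured 110, 104, 127 and 79.4 FPKM. In both genes the siPCBP2 libraries lay on either side of the untreated ones.

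**Figure D1:**
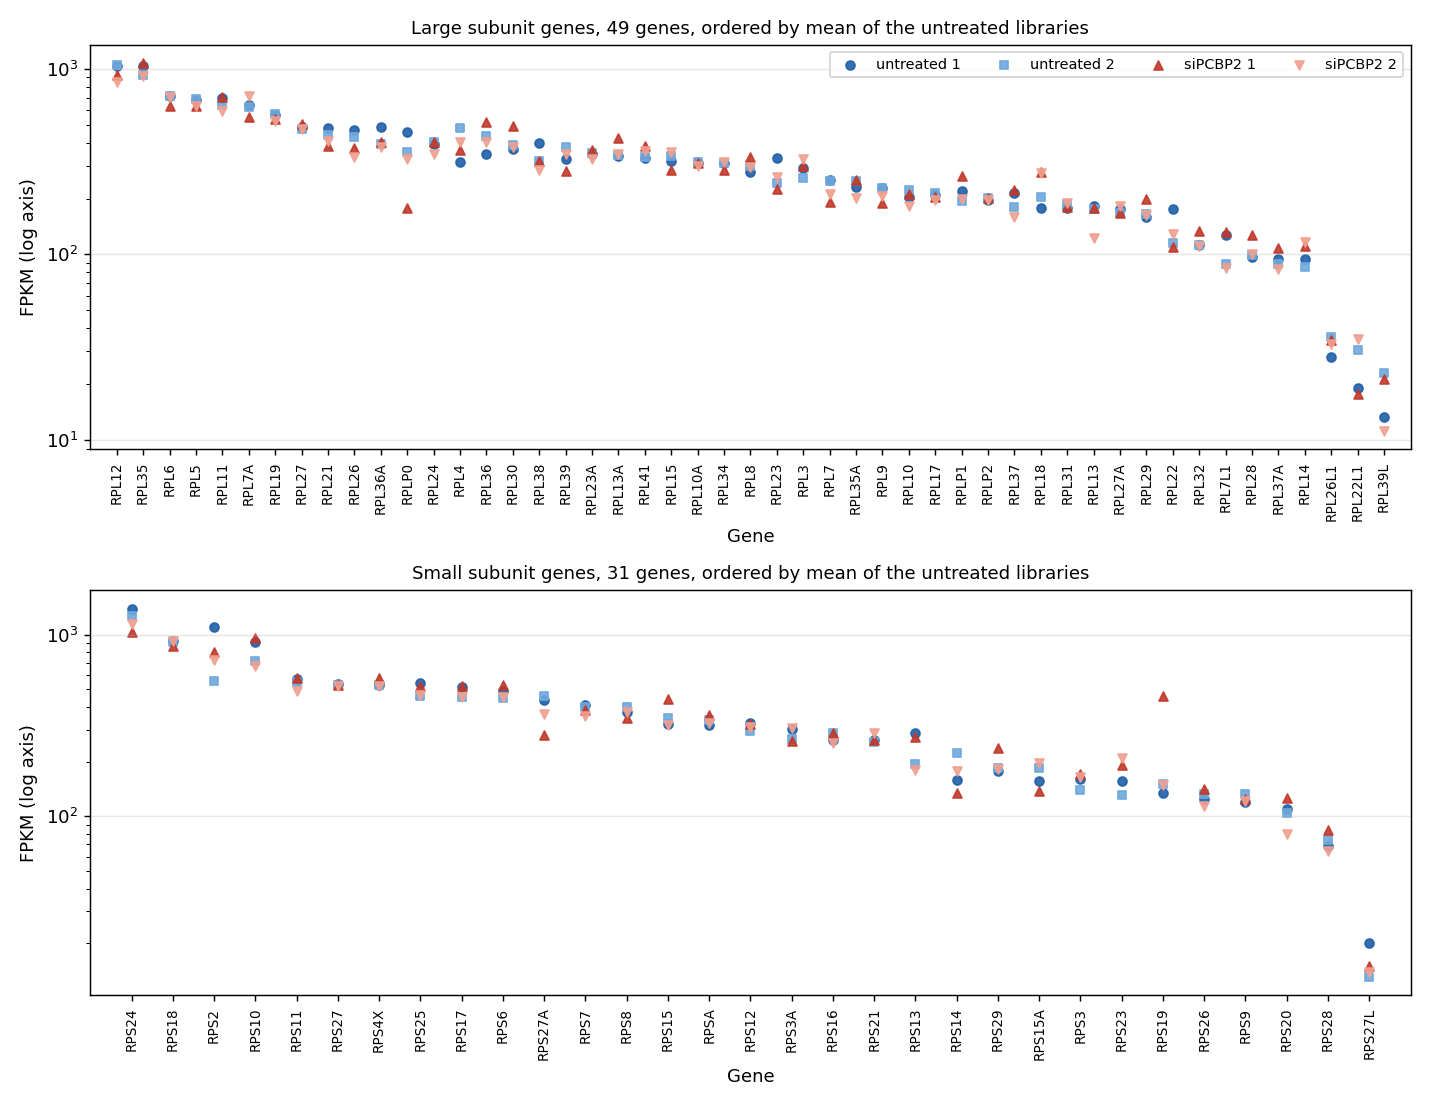
FPKM on a log axis of large subunit genes (top, 49 of 50 genes) and small subunit genes (bottom, 31 of 32 genes), with 1 point per library and genes in order of their untreated mean. The points of a gene mostly lie close together compared with the span from RPS24 at 1329 FPKM to RPS27L at 16.6 FPKM, and RPLP0, RPS19 and RPS2 show single libraries apart.

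Summed over all 82 members, the libraries held 28600 and 27307 FPKM in the untreated group and 28112 and 26352 FPKM in the siPCBP2 group. The groups overlapped. As a share of the summed FPKM without mitochondrially encoded mRNAs, the members held 10.7% ± 0.285 (SD, n = 2) in the untreated group and 10.9% ± 0.109 (SD, n = 2) in the siPCBP2 group, with single libraries at 10.9 and 10.5% and at 10.98 and 10.8%. The difference of 0.162 percentage points was smaller than the 0.404 points between the untreated libraries. It was slightly larger than the 0.155 points between the siPCBP2 libraries. With 2 libraries against 2, an exact two-sided permutation test cannot give a p under 0.333, and none was run on these sums.

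The large subunit summed to 16294, 15986, 15969 and 15286 FPKM in untreated 1 and 2 and siPCBP2 1 and 2, and the small subunit to 12306, 11321, 12144 and 11067 FPKM. Per gene, with the paralog forms included, the mean log2(FPKM + 1) was lower in the large than in the small subunit in all 4 libraries. That difference on the log2 scale was -0.17 and -0.11 in untreated 1 and 2 and -0.22 and -0.13 in siPCBP2 1 and 2. Its group means differed by -0.04, less than the 0.05 between the untreated libraries and the 0.09 between the siPCBP2 libraries. The lowest value was that of siPCBP2 1, whereas siPCBP2 2 lay between the untreated libraries. The ratio of the sums was 1.32 and 1.41 in the untreated group and 1.31 and 1.38 in the siPCBP2 group, again with overlap. Low paralog forms weigh unequally on the per-gene difference. RPL7L1, RPL22L1, RPL26L1 and RPL39L are in the large subunit set and RPS27L is in the small one. The per-gene difference was not computed without these forms. With them included, the balance of the subunits differed between the groups by less than between libraries of a group.

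**Figure D2:**
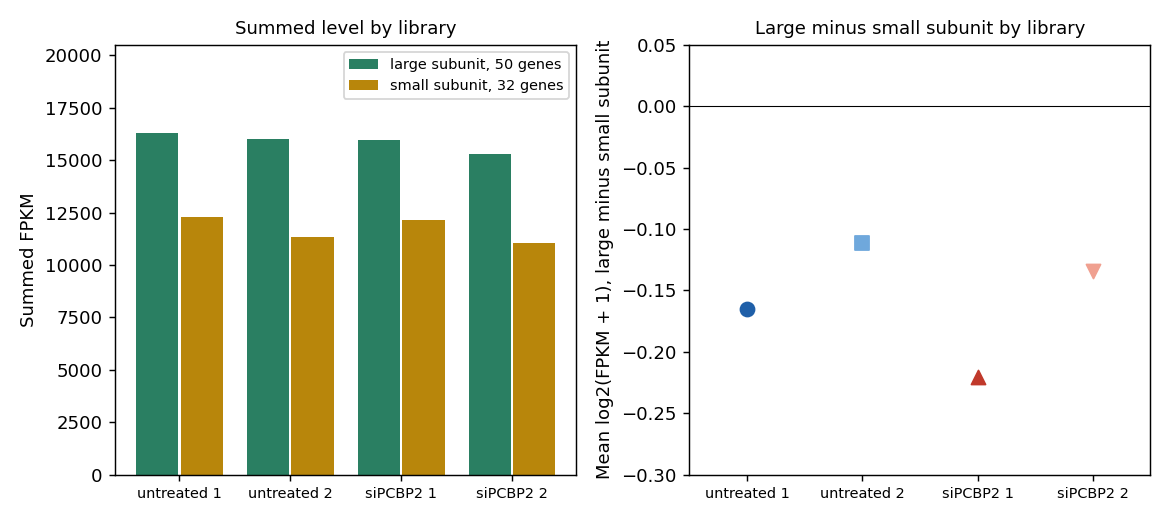
Left, bars of the summed FPKM of large subunit genes and small subunit genes in each library. Right, the mean log2(FPKM + 1) of large subunit genes minus that of small subunit genes in each library. With the paralog forms included, all 4 differences lie under 0, from -0.22 to -0.11, and the groups overlap.

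Gene by gene, silencing was compared with limma on log2(FPKM + 1) across all 7689 genes that passed a filter of 1 FPKM in 2 libraries, and all 82 members passed it. At a Benjamini-Hochberg adjusted limma p under 0.05 no member was called, against 0.052% of all genes (4 genes, all lower). The lowest adjusted p among the members was 0.174, of RPL18. At an unadjusted limma p under 0.05, 7 members (8.54%) were named, against 15.4% of all genes. Of these 7, 3 were higher (all genes, 5.67%) and 4 were lower (all genes, 9.73%). This split turned with the scaling, with 11 higher and 2 lower under quantile normalization, 5 and 2 with a common total without mitochondrially encoded mRNAs, and 4 and 2 under median-ratio scaling. It turned with the libraries too, with 4 higher and 0 lower without untreated 1, 1 and 3 without untreated 2, 3 and 5 without siPCBP2 1, and 11 and 4 without siPCBP2 2. The large subunit had 4 of 50, with 2 in each direction, and the small subunit 3 of 32, with 1 higher and 2 lower. The 7 genes are described next as values, since none passed the adjusted threshold.

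RPL18, a large subunit protein (ENSG00000063177, chr19:48615328-48619536, minus strand, hg38), measured 179 and 203 FPKM in the untreated libraries and 278 and 275 FPKM in the siPCBP2 libraries. Both siPCBP2 values were above both untreated ones, with a log2 fold change of 0.53 (SE 0.11, limma, adjusted p = 0.174). RPS23, which sits at the decoding centre of the small subunit, measured 157 and 131 FPKM against 192 and 209 FPKM. Its log2 fold change was 0.48 (SE 0.13, limma, adjusted p = 0.221). RPL14, a large subunit protein, measured 94.7 and 85.7 FPKM against 111 and 116 FPKM. Its log2 fold change was 0.34 (SE 0.11, limma, adjusted p = 0.256). In these 3 genes the groups did not overlap, and the libraries within a group lay close to each other.

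RPS27A, which is made as a fusion of ubiquitin with a small subunit protein, measured 438 and 459 FPKM in the untreated libraries and 280 and 366 FPKM in the siPCBP2 libraries. The groups did not overlap, and siPCBP2 1 was the lower of the siPCBP2 libraries. The log2 fold change was -0.48 (SE 0.15, limma, adjusted p = 0.246), and -0.29 without siPCBP2 1. In the authors' deposited table its fold of untreated over siPCBP2 was 1.39, with a p of 0.000617 and a q of 0.517. RPL26, a protein near the tunnel exit, measured 465 and 431 FPKM against 375 and 333 FPKM (log2 fold change -0.34, SE 0.11, limma, adjusted p = 0.258). RPL7, a large subunit protein, measured 251 and 247 FPKM against 192 and 212 FPKM (log2 fold change -0.30, SE 0.10, limma, adjusted p = 0.274). RPS24, given above, had a log2 fold change of -0.29 (SE 0.11, limma, adjusted p = 0.312). In all 4 genes both siPCBP2 values lay under both untreated values.

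The start sites of these members, apart from RPL7, are shown because the TOP tract is the sequence the family shares. Each line gives 15 bases before and 15 bases from an annotated RefSeq start in GRCh38.p14, on the strand of the gene, and capitals mark the pyrimidine run counted from its first C at the start; the bases before that C may be pyrimidines too.
RPL18, chr19:48619164-48619193, minus strand: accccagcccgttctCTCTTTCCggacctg
RPS23, chr5:82278340-82278369, minus strand: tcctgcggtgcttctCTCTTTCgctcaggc
RPL14, chr3:40457324-40457353, plus strand: gggcgggtcttcttcCTTCTCgcctaacgc
RPS27A, chr2:55232673-55232702, plus strand: tgcgcggcgttcttcCTTTTCgatccgcca
RPL26, chr17:8383179-8383208, minus strand: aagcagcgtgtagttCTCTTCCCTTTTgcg
RPS24, chr10:78033848-78033877, plus strand: cggcgaatcgtggttCTCTTTTCCTCCTTg
In all 6 the run begins at the start itself. The runs of the higher genes RPL18, RPS23 and RPL14 are 8, 7 and 6 bases long, and those of the lower genes RPS27A, RPL26 and RPS24 are 6, 12 and 14 bases long. RefSeq lists further starts for RPS27A.

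Across the family, 66 members had a RefSeq start in the promoter table. Of these, 58 (87.9%) held an uninterrupted run of at least 5 C or T letters beginning with C whose first base lay within 10 bases of a start, read on the gene's strand only. The share was 43.0% of the genes tested and 38.4% of all genes of the table, where such a run is thus common. With the first C exactly at the start, the shares were 71.2% of the members, 8.19% of the genes tested and 5.14% of the table. Large and small subunit members were alike in this, with 36 of 41 and 22 of 25. The 8 members without the run were RPL6, RPL17, RPL27, RPS4X, RPS29 and the paralog forms RPL7L1, RPL26L1 and RPS27L. The median log2 fold change was -0.01 in the 58 members with the run and 0.01 in the 8 without it. At an unadjusted limma p under 0.05 were 6 of the 58 and none of the 8 (all genes, 15.4%). The 16 members with no start in the table had a median of -0.06 with 1 such gene, RPL7.

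Most of the family lay near no difference. The median log2 fold change was -0.02 over all members, -0.03 over the large and -0.02 over the small subunit, against -0.04 over all genes tested. In direction 33 members were higher and 49 lower, where 55.6% of all genes were lower. This split depends on the scaling, as does that of all genes. Quantile normalization gave 60 higher and 22 lower members (all genes, 3869 and 3818). Median-ratio scaling gave 49 and 33 (all genes, 3903 and 3786). A common total without mitochondrially encoded mRNAs gave 52 and 30 (all genes, 4073 and 3616). Above the median of all genes tested lay 46 members without rescaling and 60, 47 and 47 under these scalings. The SD of the log2 fold change over the members was 0.21, against 0.34 over all genes. At least 1.25-fold either way on the log2(FPKM + 1) scale were 8 members (9.76%), against 26.8% of all genes. The members thus spread less than the table as a whole, at levels well above its median.

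Groups without overlap were counted as a second description. In 25 members (30.5%) all siPCBP2 values lay on 1 side of all untreated values, against 49.1% of all genes. Of these, 10 were higher (all genes, 19.7%), among them RPL3, RPL13A, RPL14, RPL18, RPL28, RPL41, RPS3, RPS21 and RPS23. The other 15 were lower (all genes, 29.4%), namely RPL5, RPL6, RPL7, RPL9, RPL10A, RPL12, RPL17, RPL19, RPL21, RPL26, RPL38, RPLP0, RPS7, RPS24 and RPS27A. Among the higher genes, leaving out siPCBP2 1 took the log2 fold change from 0.17 to 0.03 in RPL13A and from 0.21 to 0.04 in RPL28. In RPL3 and RPL14 it went the other way, from 0.19 to 0.25 and from 0.34 to 0.37. The large subunit contributed 19 of its 50 members (38%) and the small subunit 6 of its 32 (18.8%), and the difference between the subunits was not tested. RPS3, which lines the mRNA entry channel with RPS2, measured 160 and 139 FPKM against 171 and 165 FPKM. RPS7, a small subunit protein, measured 407 and 401 FPKM against 386 and 355 FPKM. Their log2 fold changes of 0.17 (SE 0.11) and -0.13 (SE 0.10) had adjusted limma p-values of 0.505 and 0.552.

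**Figure D3:**
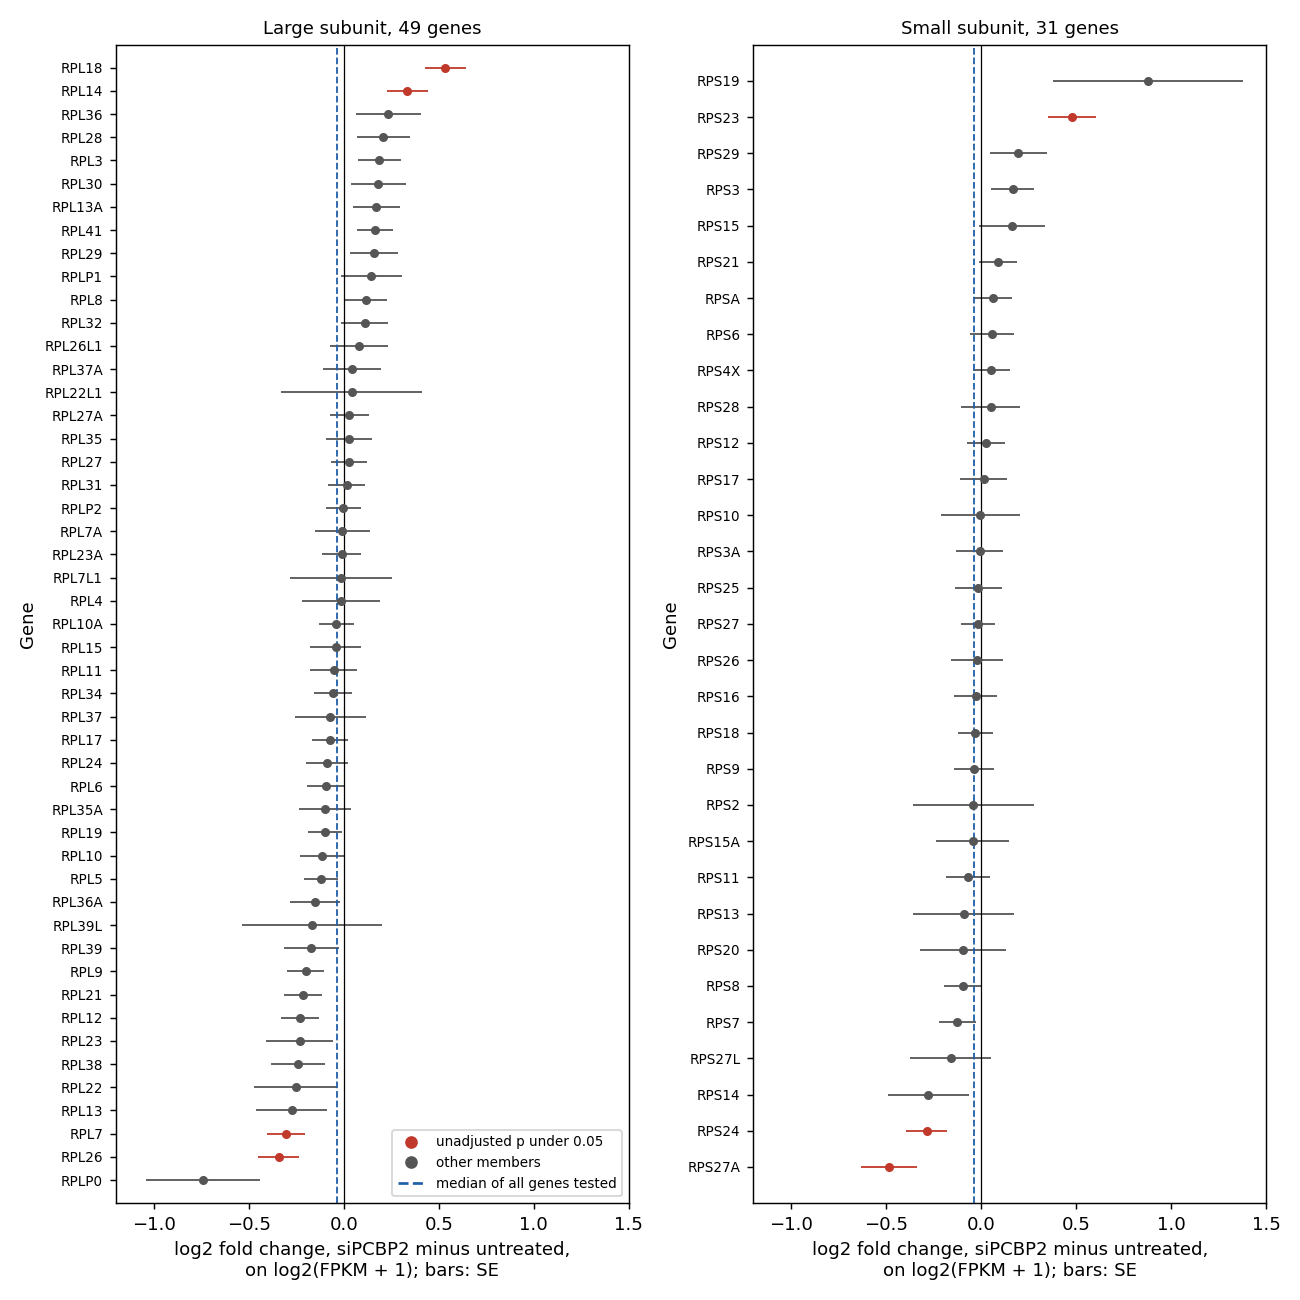
log2 fold change of 80 of the 82 members, siPCBP2 minus untreated on log2(FPKM + 1), with the SE as bars, for the large subunit (left) and the small subunit (right). Red marks the 7 members with an unadjusted p under 0.05, none of which passed adjustment, and the dashed line is the median of all genes tested at -0.04. RPLP0 at -0.74 and RPS19 at 0.88 lie outermost with SEs of 0.30 and 0.50.

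The 2 outermost fold changes depended on siPCBP2 1. RPLP0, which anchors the stalk that recruits translation factors, measured 458 and 356 FPKM in the untreated libraries and 178 and 326 FPKM in the siPCBP2 libraries. Only siPCBP2 1 was far down, and the log2 fold change of -0.74 (SE 0.30, limma, adjusted p = 0.330) was -0.31 without that library. RPS19, a head protein and the gene most often mutated in Diamond-Blackfan anaemia, measured 134 and 150 FPKM against 456 and 149 FPKM. Here siPCBP2 1 alone was high, 3.06-fold above siPCBP2 2, which lay between the untreated values. The log2 fold change of 0.88 (SE 0.50, limma, adjusted p = 0.443) was 0.08 without siPCBP2 1. Both starts carry the run at the start itself, of 9 bases in RPLP0 and 11 bases in RPS19, and are shown to set these genes beside those above.
RPLP0, chr12:120201097-120201126, minus strand: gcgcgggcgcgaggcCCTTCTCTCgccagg
RPS19, chr19:41860240-41860269, plus strand: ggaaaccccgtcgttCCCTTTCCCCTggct

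The other proteins of the stalk are RPLP1 and RPLP2, which form the dimers bound to RPLP0. RPLP1 measured 219, 195, 263 and 198 FPKM in untreated 1 and 2 and siPCBP2 1 and 2, with siPCBP2 1 the highest. RPLP2 measured 197, 201, 200 and 197 FPKM, with a log2 fold change of -0.0027 (SE 0.09). RPL5 and RPL11, which travel with 5S rRNA and can bind MDM2, were among the higher large subunit genes. RPL5 measured 681 and 685 FPKM against 627 and 632 FPKM, with a log2 fold change of -0.12 (SE 0.09, limma, adjusted p = 0.549). RPL11 measured 699 and 640 FPKM against 703 and 591 FPKM, with overlap of the groups.

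Of 9 proteins around the tunnel exit, 1 (RPL26) had an unadjusted limma p under 0.05 (11.1%, all genes 15.4%). The log2 fold change was below 0 in 7 of the 9, and its median over the 9 was -0.10. The remaining 2, RPL35 and RPL31, had log2 fold changes of 0.03 and 0.02. Of the others, RPL38 measured 399 and 319 FPKM against 318 and 286 FPKM, and RPL39, which lines the tunnel wall, 328 and 380 FPKM against 282 and 348 FPKM. Of 14 proteins of the small subunit head, 1 (RPS27A) had an unadjusted limma p under 0.05 (7.14%, all genes 15.4%). In log2 fold change 8 were above 0 and 6 below, with a median of 0.02. In 12 of these 14 genes siPCBP2 1 was higher than siPCBP2 2, and the median of the head genes was -0.09 without siPCBP2 1 and 0.22 without siPCBP2 2. The scaling mattered as well. Under the 3 other scalings named above the head genes split 12 higher and 2 lower, with medians of 0.06 to 0.14, and the tunnel exit genes had 5 to 6 of 9 below 0, with medians of -0.06 to -0.0027.

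Several members differed widely between libraries of the same group. In the untreated group 7 members (8.54%) differed at least 1.5-fold between libraries, against 8.54% of all genes. In the siPCBP2 group 7 members differed that far, against 10.4% of all genes. RPS13, a small subunit protein, measured 287 and 194 FPKM in untreated 1 and 2 and 272 and 180 FPKM in siPCBP2 1 and 2. RPS10, a head protein, measured 909 and 715 FPKM and then 960 and 673 FPKM. In both genes each group had a high and a low library, while the group means lay close together. RPL22L1, RPL7L1 and RPS14 also differed at least 1.25-fold in the same direction in both pairs, and RPL36, RPL39L and RPLP0 were among those that did so in opposite directions.

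**Figure D4:**
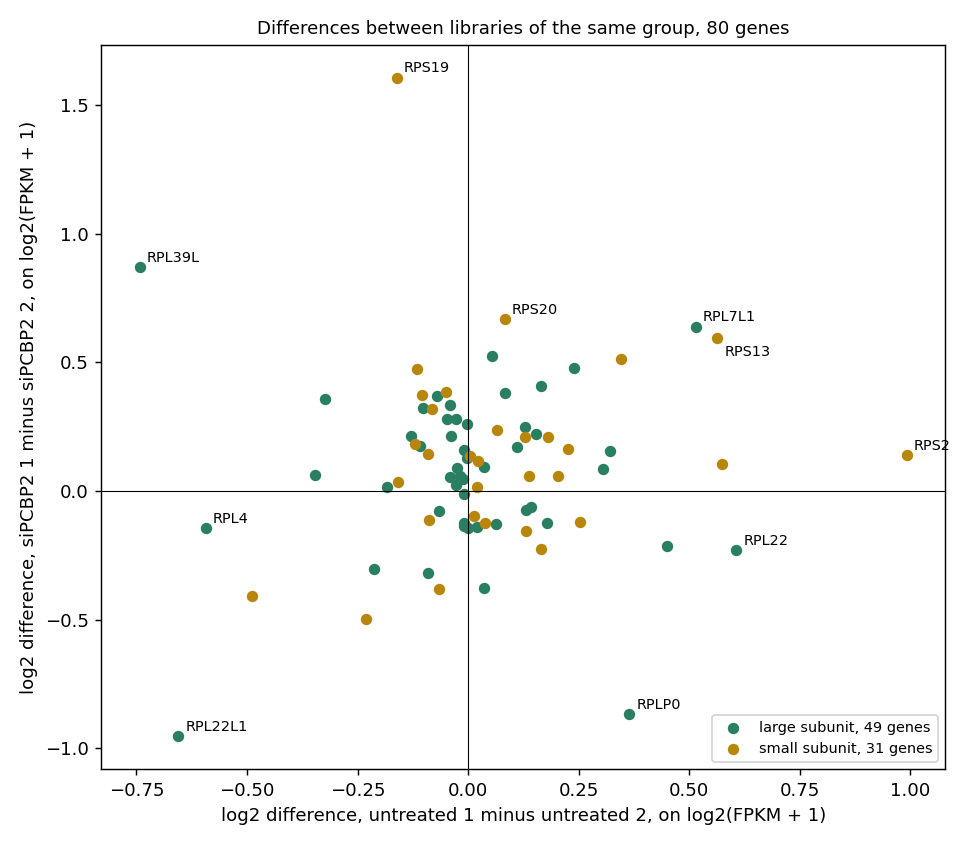
For 80 of the 82 members, the log2 difference between the untreated libraries (horizontal) against that between the siPCBP2 libraries (vertical), on log2(FPKM + 1). Genes at least 1.5-fold apart in either group are named. RPS19 lies highest, at 3.06-fold between the siPCBP2 libraries, and RPS2 lies farthest right, at 1.99-fold between the untreated libraries.

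The separation of siPCBP2 1 was visible in the levels of the 82 members. Their Spearman correlation was 0.920 to 0.934 between siPCBP2 1 and each other library, and 0.964 to 0.979 among the other 3. Over all genes tested these ranges overlapped, at 0.941 to 0.959 and 0.947 to 0.966. There siPCBP2 2 correlated more with siPCBP2 1 (0.959) than with untreated 1 (0.947) or untreated 2 (0.949). Members were higher in siPCBP2 1 than in siPCBP2 2 in 55 of 82 genes, with a median log2 difference of 0.11, whereas untreated 1 was above untreated 2 in 39 of 82. Over all genes tested the numbers were 4511 of 7689, with a median of 0.053, and 3942 of 7689. Summed FPKM of all genes was also higher in siPCBP2 1 (378204) than in siPCBP2 2 (352964). The members held 7.43% and 7.47% of these totals. The members at an unadjusted limma p under 0.05 depended on the libraries used. They numbered 8 without siPCBP2 1 (all genes, 14.1%) and 15 without siPCBP2 2 (all genes, 15.5%), of which 5 and 5 were among the 7 above. They numbered 4 without untreated 1 (all genes, 8.22%) and 4 without untreated 2 (all genes, 9.3%), of which 3 and 1 were among the 7. Where a group is left with 1 library, that library is assumed to vary like the others. RPL18 was under 0.05 in all 4 of these fits, and no member passed the adjusted threshold in any.

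Base composition moved with the fold changes. The coding stretches of the members had a median length of 453 nt, against 1359 nt for the genes tested, and a median GC content of 50.8%, against 51.0%. Across the 82 members the log2 fold change and the coding GC content had a Spearman correlation of 0.47, against 0.21 over 7668 genes with a coding sequence. The 41 members with lower GC content had a median log2 fold change of -0.07 and the 41 with higher GC content 0.03. The difference between siPCBP2 1 and siPCBP2 2 moved with GC content too, with a Spearman correlation of 0.36 over the members and 0.33 over all genes. The difference between untreated 1 and untreated 2 moved with it in the opposite direction, at -0.25 over the members and -0.17 over all genes. By subunit this correlation was -0.08 over the large and -0.47 over the small subunit. Without siPCBP2 1 the correlation of fold change and GC content was 0.22 over the members and 0.05 over all genes, and without siPCBP2 2 it was 0.47 and 0.32. All points share the same 4 libraries, so these correlations of fold change and GC content are descriptions. After a correction for GC content this correlation was -0.0027 over all genes but still 0.25 over the members. With the correction, RPL18, RPS23, RPL14, RPS27A, RPL26 and RPL7 stayed at an unadjusted limma p under 0.05, and RPL13 joined them. RPS24 was no longer under 0.05, with a log2 fold change of -0.25 against -0.29 before the correction. The Spearman correlation of fold change with coding length was -0.04.

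**Figure D5:**
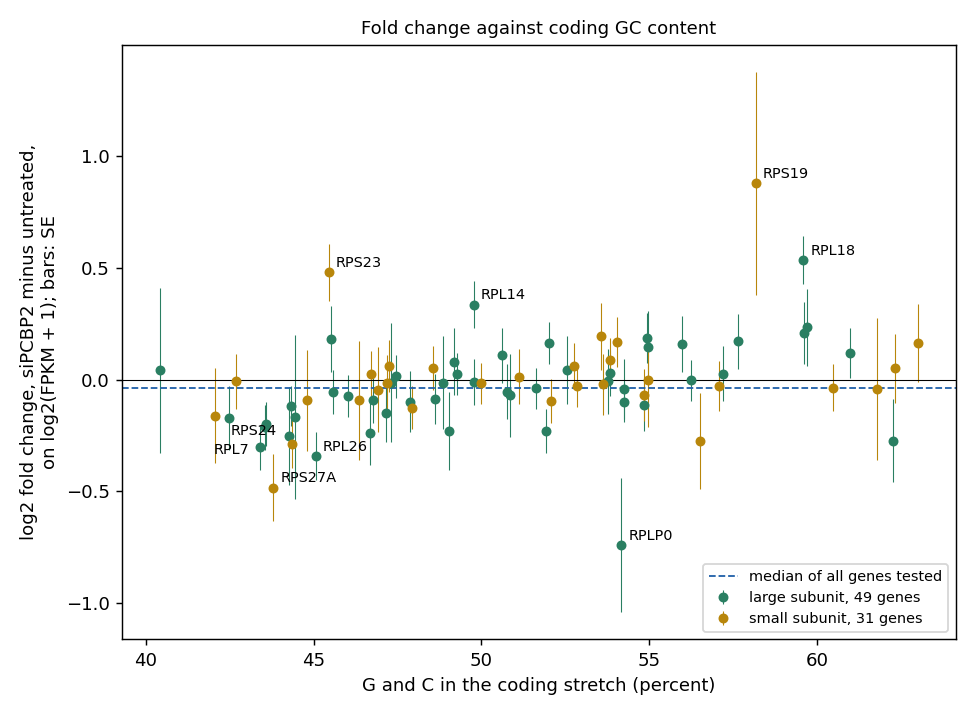
log2 fold change of 80 of the 82 members, siPCBP2 minus untreated on log2(FPKM + 1), with the SE as bars, against the percentage of G and C in the coding stretch. The dashed line is the median of all genes tested. The 7 members with an unadjusted p under 0.05, RPLP0 and RPS19 are named, and values tend upward with GC content (Spearman 0.47 over all 82).

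The paralog forms, encoded by separate genes beside a main form, were the lowest members with the exception of RPL7L1. RPL22L1 measured 19.1 and 30.7 FPKM in the untreated libraries and 17.7 and 35.2 FPKM in the siPCBP2 libraries, whereas its parent RPL22 measured 176 and 115 FPKM against 110 and 129 FPKM. RPL39L, best known from male germ cells, measured 13.3 and 22.9 FPKM against 21.3 and 11.2 FPKM, far under RPL39 given above. RPS27L, a target of p53, measured 20.01 and 13.1 FPKM against 15.0 and 13.9 FPKM, whereas RPS27 measured 536, 529, 529 and 523 FPKM. RPL26L1 measured 28.1 and 35.9 FPKM against 34.4 and 32.9 FPKM. RPL7L1 measured 127 and 88.8 FPKM against 132 and 84.3 FPKM. No paralog form had an unadjusted limma p under 0.05, and 3 of the 6 listed forms differed at least 1.5-fold between the libraries of a group, namely RPL22L1, RPL39L and RPS27L in the untreated group and RPL22L1, RPL39L and RPL7L1 in the siPCBP2 group. RPL36AL, whose protein is nearly identical to that of RPL36A, falls outside the name rule and measured 252 and 208 FPKM against 203 and 204 FPKM, beside 483 and 391 FPKM against 403 and 380 FPKM of RPL36A.

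The starts of a parent and its paralog form are shown for 2 pairs, with capitals as above, because the run is missing from the paralog form in the first pair and present in both genes of the other.
RPS27, chr1:153990747-153990776, plus strand: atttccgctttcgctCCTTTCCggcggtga
RPS27L, chr15:63157463-63157492, minus strand: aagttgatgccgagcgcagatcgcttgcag
RPL22, chr1:6199581-6199610, minus strand: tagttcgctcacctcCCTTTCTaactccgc
RPL22L1, chr3:170870181-170870210, minus strand: cgcggccgtagcttcCTCTCTgctctcgcg
RPS27 holds a run of 7 bases at its start and RPS27L holds none in this window. RPL22 and RPL22L1 both hold a run at the start, of 7 and 6 bases.

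Shared sequence limits these values. Of the 82 members, 77 have at least 1 pseudogene named after them in GENCODE 29, 1144 in all, and 9 share an exon on their strand with another coding gene, among them RPL17, RPL36A and RPS10, which have annotated read-through transcripts. How the authors' quantifier divided such fragments, and whether the libraries kept strand, was not stated in the sources available for this work. The median log2 fold change was -0.04 in the 40 members with 10 or more pseudogenes and 0.01 in the 42 with fewer. At an unadjusted limma p under 0.05 were 5 of the 40 and 2 of the 42 (all genes, 15.4%). The difference was not tested. RPL18, RPL14 and RPLP0 have 4, 3 and 5 named pseudogenes, and RPL7 has 61. RPS27A, RPL26, RPS23 and RPS24 have 17, 14, 10 and 10. RPL26 also shares an exon with another coding gene, AC135178.2.

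Other genes of the pathway were taken as lists. FAU and RACK1, which encode small subunit proteins, had log2 fold changes of 0.02 and -0.16. Of 20 translation factors and other genes with a TOP tract, none passed the adjusted threshold, and the median was 0.03. At an unadjusted limma p under 0.05, 2 were higher and 1 lower (15%, all genes 15.4%). The lower one was CCNI, a cyclin-family gene, at 95.3 and 99.0 FPKM against 65.5 and 64.8 FPKM (limma, adjusted p = 0.151). The higher ones included EEF1A1, which delivers aminoacyl-tRNA to the ribosome, at 1153 and 1256 FPKM against 1563 and 1950 FPKM (limma, adjusted p = 0.216). The median of this list was -0.02 without siPCBP2 1 and -0.10 without siPCBP2 2.

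Of 18 genes of mTOR signalling and TOP mRNA binding, 14 were listed and none passed the adjusted threshold. CNBP, which binds TOP mRNAs, measured 60.1 and 52.1 FPKM against 35.3 and 41.2 FPKM (log2 fold change -0.54, limma, adjusted p = 0.210). AKT1S1, a component of mTOR complex 1, measured 11.2 and 18.9 FPKM against 34.5 and 23.98 FPKM (log2 fold change 0.93, limma, adjusted p = 0.246). LARP1 had means of 85.6 and 92.6 FPKM in the untreated and siPCBP2 groups (limma, adjusted p = 0.615). Of 13 chaperones and escorts of ribosomal proteins, 11 were listed, none had an unadjusted limma p under 0.05, and the median was 0.18, with 6 higher and 5 lower. This median was 0.21 to 0.24 under the other scalings, 0.094 with the GC correction, and 0.0999 to 0.18 when 1 library was left out. PDCD2, which escorts RPS2, had means of 25.7 and 31.6 FPKM, and TSR2, which escorts RPS26, of 21.5 and 28.1 FPKM (limma, adjusted p = 0.345 and 0.364).

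Of 14 genes of RNA polymerase I and of transcription factors for ribosomal protein genes, 12 were listed and none passed the adjusted threshold. MYC, which drives transcription of ribosomal genes, measured 6.13 and 7.42 FPKM in the untreated libraries and 105 and 42.9 FPKM in the siPCBP2 libraries (log2 fold change 3.14, SE 0.41, limma, adjusted p = 0.108). Both siPCBP2 values lay far above the untreated ones, beside a median of -0.02 over the ribosomal protein genes. SP1 had means of 21.1 and 15.4 FPKM (limma, adjusted p = 0.227). As a reference of similarly short coding length, 74 nuclear-encoded respiratory chain genes were taken. At an unadjusted limma p under 0.05, 3 were higher and 3 lower (8.11%, all genes 15.4%), with a median of -0.08. Their SD was 0.32, against 0.21 over the ribosomal protein genes. Quartiles were -0.20 and 0.08, against -0.10 and 0.08 over the ribosomal protein genes. The reference was not matched for level, at an untreated median of 38.6 FPKM against 288 FPKM, so the spreads are not compared at equal level. Among its smallest p-values was that of NDUFS8, a complex I subunit (log2 fold change 0.90, limma, adjusted p = 0.174). The 13 mitochondrially encoded mRNAs had none at an unadjusted limma p under 0.05 and a median of 0.0088.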

How the data were processed

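Per the labels' protocols, mRNA was selected with poly-T beads and libraries were primed with random hexamers and read from both ends. The submitters' processing notes name HISAT2 2.0, Trimmomatic 0.36, FastQC 0.11.2, bedtools 2.26.0 and hg38. Quantifier and annotation are not given in the sources used here. In the authors' deposited table each gene has 1 value per library, taken as FPKM from the values because the header names no unit. The authors made their deposited fold as a ratio of the untreated mean plus 0.1 over the siPCBP2 mean plus 0.1, as the values of all 7698 genes show (relative tolerance 1e-06). For the authors' deposited p-values and q-values, the test is not given in the sources used here. Sequencing depth is unknown.

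The 7689 genes with at least 1 FPKM in 2 libraries entered limma 3.58.1 (R 4.3.3, empirical Bayes with a mean-variance trend, two-sided) on the log2(FPKM + 1) scale, as siPCBP2 minus untreated, with Benjamini-Hochberg adjustment over all genes tested and a threshold of 0.05. The pseudocount understates changes of low genes. The procedure was tested on simulated data. Summaries were made with pandas 2.3.3, numpy 2.4.6 and scipy 1.17.1 in Python 3.11.15. Coding length and GC content came from GENCODE 29, in which 67 of 82 members have the table's coordinates. Start sequences came from RefSeq (GRCh38.p14).

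Members and lists were chosen with earlier results of these data known. Values in full were given for PCBP2, the 6 members of each subunit with the smallest limma p, the 3 highest and 3 lowest of each subunit by untreated mean, paralog forms with their parents, and the stalk and 5S RNP members. Of the other lists the rule was to name the 2 genes with the smallest p. It was not followed for the mitochondrially encoded mRNAs, of which none was named, nor for genes left out by name. RPS13, RPS10, RPL38, RPL31, RPL13, FAU, RACK1 and LARP1 were named after their values were seen. A comparison of paralog proteins was not run. A few genes are not reported here by name and 2 members are not drawn in the plots; all remain in the tests and counts. Alternatives changed the scaling, pseudocount, filter, variance trend, libraries and members, or added a replicate block or a GC correction.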

Additional observations from a re-analysis of the deposited data

How the results depend on the processing

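No ribosomal protein gene passed the adjusted limma threshold under any alternative, and the lowest adjusted p was 0.103 (RPS19, without siPCBP2 2). Over all genes, the 4 calls became 2 under quantile normalization, 2 under median-ratio scaling, 2 with a common total without mitochondrially encoded mRNAs, 0 without the variance trend (1220 genes at an unadjusted p under 0.05), 16 with the GC correction, and 0 (lowest and highest 0) when any 1 library was left out (632 to 1192 at that level). The GC correction was chosen after seeing the data. With the replicate block 0 genes were called (940 at an unadjusted p under 0.05) and 5 members were at that level (all genes, 12.2%). With only 2 pairs, the differences between replicates 1 and 2 had a correlation of -0.09 across genes between the groups, so the numbers were not taken to pair the samples.

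The 7 members at an unadjusted limma p under 0.05 became 13 under quantile normalization (all genes, 15.5%), 4 without the variance trend (15.9%), and 4 to 15 when 1 library was left out (8.22% to 15.5%). The members' median log2 fold change of -0.02 became 0.093 under quantile normalization (large subunit 0.068, small subunit 0.11). It ranged from -0.070 to 0.052 over left-out libraries. The median of all genes tested was 0.0019 under quantile normalization and ranged from -0.062 to -0.012 over left-out libraries. With a common total without mitochondrially encoded mRNAs the large subunit median was 0.033. The log2 ratio of the groups' summed levels was 0.0699 under quantile normalization and 0.022 with that common total. The cause of these shifts was not tested.

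Signs turned for members near 0. Under quantile normalization log2 fold changes were 0.061 in RPL11, 0.013 in RPL36A, 0.014 in RPL5, 0.027 in RPL6, 0.0698 in RPL7L1, 0.01996 in RPLP2, 0.016 in RPS7, 0.14 in RPS18, 0.16 in RPS2 and 0.11 in RPS27. Under median-ratio scaling they were 0.0303 in RPL7L1, 0.026 in RPS27, 0.041 in RPLP2, 0.014 in RPS18 and 0.0033 in RPS2. With the common total they were 0.0063 in RPL11, 0.046 in RPL7L1, 0.057 in RPLP2, 0.02996 in RPS18, 0.019 in RPS2 and 0.042 in RPS27. With the GC correction they were -0.021 in RPL35, 0.015 in RPL7L1 and -0.057 in RPS28. Over left-out libraries log2 fold changes ranged from -0.18 to 0.071 in RPL11, -0.56 to 0.051 in RPL22, -0.44 to 0.52 in RPL22L1, -0.092 to 0.25 in RPL26L1, -0.085 to 0.14 in RPL35, -0.30 to 0.0024 in RPL36A, -0.60 to 0.27 in RPL39L, -0.33 to 0.31 in RPL7L1, -0.058 to 0.35 in RPLP1, -0.016 to 0.011 in RPLP2, -0.078 to 0.018 in RPS18, -0.54 to 0.46 in RPS2, -0.43 to 0.24 in RPS20, -0.45 to 0.13 in RPS27L and -0.14 to 0.24 in RPS28. The depth is unknown, and the 2 libraries of each group limit the precision.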
